A study of Drosophila virilis and Drosophila yakuba with 2 samples.

Results

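The gene of alcohol dehydrogenase, its duplicate in D. virilis and the related gene Adhr were examined in the heads of 2 fruit fly species. Adh encodes an enzyme of the short-chain dehydrogenase family that oxidises ethanol to acetaldehyde with NAD+ as the acceptor, the first step by which flies detoxify and use the alcohol of fermenting fruit. In D. melanogaster the enzyme is abundant in the fat body and gut, Adh lies in an intron of the gene outspread (osp), and Adhr, an old relative of Adh, lies immediately downstream and is transcribed in part on a joint, dicistronic RNA with Adh. The biochemical role of Adhr has remained uncertain.

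The models were chosen by symbol: Adh1, Adh2 and Adhr of D. virilis and Adh and Adhr of D. yakuba, 5 gene models of 30568 in all (3 of 14491 in virilis and 2 of 16077 in yakuba). Total RNA was taken from dissected heads of wild type, mated females 2 to 5 days old, and 1 µg of it gave 1 stranded library per species. Each library came with a single value per model, in FPKM (fragments counted relative to the length of the model and to the library total), so that levels can be compared between genes. With 1 library per species there was no replicate error, and no difference was tested. The species, their annotations, the read mapping and the libraries cannot be told apart.

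Many of the low FPKM values searched fell on whole-fragment steps, which gave an estimated 70750000 fragments in virilis and 63250000 in yakuba. The 95% exact Poisson intervals below rest on these totals, cover counting error only and treat the whole span of a model as transcribed. Markers of the head were present where a symbol was found. The rhodopsin gene ninaE stood at 8636 FPKM in virilis and the arrestin gene Arr1 at 2177 FPKM in yakuba. These were the highest eye markers found, and the lowest were Rh2 at 62.9 FPKM in virilis and chp at 378 FPKM in yakuba. Neuron markers were lower, with para at 33.2 and elav at 12.8 FPKM in virilis and fne at 24.5 FPKM in yakuba. The medians over models with a symbol were 8.61 FPKM in virilis and 23.7 FPKM in yakuba. The 8 ovary markers found in virilis lay between 0.0864 and 4.04 FPKM and the 2 found in yakuba at 0.850 and 2.81 FPKM. Of 9 fat body markers only 1 was found in each library, the yolk protein gene Yp1 at 215 FPKM in virilis and takeout (to) at 39.2 FPKM in yakuba. Because these are different genes, the amount of fat body RNA in the 2 libraries could not be compared, and its part in the Adh levels was not tested. In whole heads, fewer cells of a type and less RNA per cell cannot be told apart.

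Alcohol dehydrogenase RNA was among the most abundant in both heads. In yakuba, Adh (FBgn0013162, 2L, 14730546 to 14731445, a span of 900 bp) had 4341 FPKM, with a counting interval of 4322 to 4360 FPKM. In virilis, Adh1 (FBgn0014836, scaffold_12723, 2503325 to 2504207) had 1979 FPKM (1966 to 1991) and Adh2 (FBgn0014837, scaffold_12723, 2510385 to 2511267) had 1537 FPKM (1526 to 1547). As listed, both virilis copies were high, and neither alone reached the yakuba level, which was 2.19 times that of Adh1 and 2.82 times that of Adh2. How reads shared between the copies were treated is not known, so the level of each copy alone is uncertain.

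Adhr was low in yakuba and listed at 0 in virilis. Yakuba Adhr (FBgn0013164, 2L, 14731759 to 14733142, a span of 1384 bp) had 3.05 FPKM, with a counting interval of 2.66 to 3.46 FPKM that corresponds to about 232 fragments over its span. Virilis Adhr (FBgn0042733, scaffold_12723, 2587528 to 2588622, a span of 1095 bp) was listed at 0. At the estimated total, 1 fragment over that span would have given 0.0151 FPKM and a floor of 3 fragments 0.0453 FPKM. Because a listed 0 can also be a failed estimate, no fold is given against it.

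**Figure D1:**
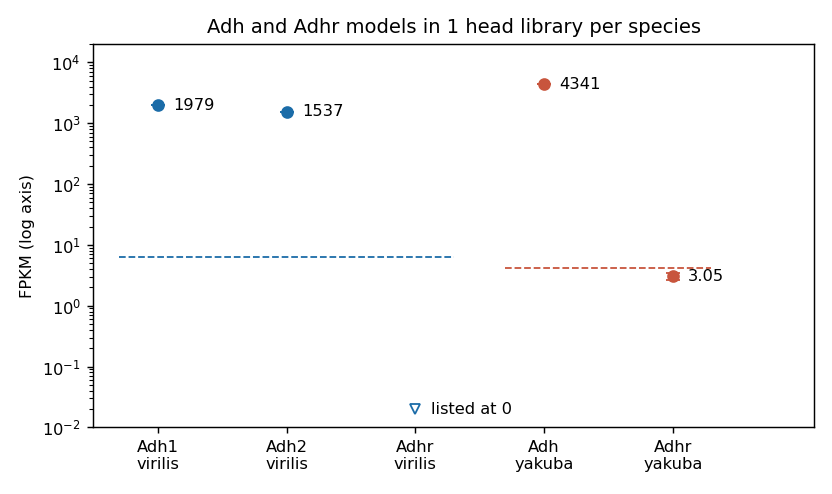
FPKM (log axis) of each Adh and Adhr model in the virilis (blue) and yakuba (red) head libraries. Points are single library values, bars the 95% Poisson counting intervals, dashed lines the median of all models in the library, and the open triangle a model listed at 0. The 3 Adh models lie above 1500 FPKM, while yakuba Adhr at 3.05 FPKM lies below its library median of 4.20 FPKM.

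By rank, yakuba Adh was the third highest of 16077 models, with rank 3, and virilis Adh1 and Adh2 had ranks 18 and 25 of 14491. Among models with a symbol, Adh was at rank 2 of 496 in yakuba, below Nplp2 (6117 FPKM), a gene of the neuropeptide-like precursor family, and above the metallothionein gene MtnA (2213 FPKM). In virilis Adh1 stood between the actin gene ActC2 (2199 FPKM) and ATPsyn-beta (1710 FPKM), a gene of the mitochondrial ATP synthase, at rank 5 of 279, and Adh2 between the myosin light and heavy chain genes Mlc1 (1685 FPKM) and Mhc (1181 FPKM), at rank 8. These neighbours hold only among the 1.93% of virilis models that carry a symbol. Over all virilis models, Mlc1 was at rank 22 and Mhc at rank 36, so models without a symbol lay between them and Adh2. The muscle genes wupA and up of the same head were lower, at 464 and 383 FPKM.

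Yakuba Adhr was at rank 8778, with 45.4% of all models lower but only 19.6% of the models with a symbol. Its neighbours in that order were Acp53Ea, which encodes a male accessory gland protein, at 3.11 FPKM and the galactosyltransferase gene beta3galt6 at 3.01 FPKM. These 2 values lie inside the counting interval of Adhr, so the order of the 3 genes is not resolved at this depth. In virilis, Adhr shared the value 0 with 893 models in all (6.16%), with 10 of the 279 models with a symbol (3.58%) and with 310 of the 10330 models whose span was at least 900 bp.

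**Figure D2:**
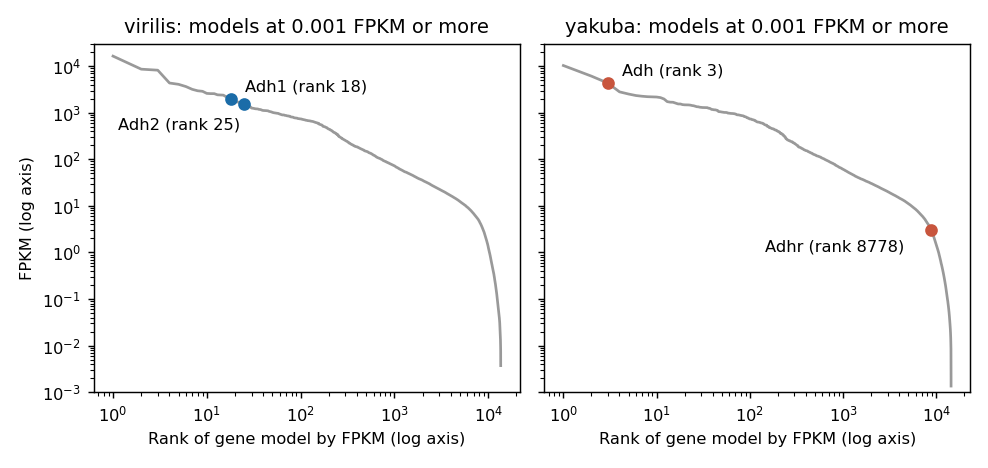
FPKM of the models at 0.001 FPKM or more (log axis) against their rank (log axis) in virilis (left) and yakuba (right), with the Adh and Adhr models marked. Adh1, Adh2 and Adh lie at ranks 18, 25 and 3 on the upper end of the curves, and yakuba Adhr at rank 8778 lies where the curve bends downward; virilis Adhr, listed at 0, is not drawn.

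The duplicates of virilis had similar levels. Adh1 was 1.29 times as high as Adh2 (log2 ratio 0.36), and the copies held 56.3% and 43.7% of their sum. Both spans were 883 bp long. Among the 32 virilis pairs of neighbouring models less than 10 kb apart that had equal spans and values above 0, 16 differed by less than 2-fold (50%), so a small difference was common among such pairs. The identity of the copies was not measured here. Where copies are alike, reads can be split or shared between them, and how such reads were treated is not given in the sources used here, so each value, the ratio and the sum below are uncertain. The mean of the copies was 1758 FPKM.

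Summed over its models, Adh had 3515 FPKM in virilis (3499 to 3531) and 4341 FPKM in yakuba (4322 to 4360), which was 0.728% and 1.03% of all FPKM of the library. As 1 gene, the virilis sum would have had rank 7. The yakuba level was 1.23 times the virilis sum. Because the sum stayed below the yakuba level, it was closer to that level than either copy by arithmetic alone. Between species, values were set against the 77 genes with the same symbol in both tables, as log2((virilis + 1)/(yakuba + 1)) relative to a median of -0.20 over the 52 pairs whose values reached 1 FPKM in each library. On this scale the summed Adh ratio was -0.11, and it was -0.30 before centring and 0.060 when ribosomal protein pairs set the centre, so its direction depended on the scaling. Of the 41 pairs whose higher value reached 10 FPKM, 32 lay at least as far from the median ratio as the summed Adh did, and 33 (80.5%) lay within 2-fold. Past 4-fold stood 1 pair higher in virilis (2.44%) and 3 pairs higher in yakuba (7.32%), of which MtnC was listed at 0 in virilis, and the summed Adh was not past it.

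Adhr was one of the 77 pairs but fell under the minimum of 10 FPKM in both libraries. It was one of 4 pairs listed at 0 in virilis (5.19%). The others were the maltase genes Mal-A3 and Mal-A4, at 0.174 and 0.111 FPKM in yakuba, and the metallothionein gene MtnC, at 15.7 FPKM in yakuba. Adhr and MtnC were the 2 pairs at 0 in virilis that had 1 FPKM or more in yakuba (2.6%). The yakuba table gives MtnB the same 15.7 FPKM, so the MtnC value may not be a separate measurement.

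The pairs with levels most like the summed Adh were ATPsyn-beta, MtnA and the ribosomal protein genes RpL31, RpL14 and RpL15, by Euclidean distance in log2(FPKM + 1) over the 2 libraries. The nearest, ATPsyn-beta, stood at 1710 FPKM (virilis) and 1382 FPKM (yakuba), at a distance of 1.95 log2 units, and RpL15 was at 2.85. The spans of MtnA were short, 213 bp (virilis) and 383 bp (yakuba). At estimated fragment lengths of 160 and 180 bp its levels are less certain. No pair lay close to the summed Adh, since no other gene among the 77 was as high in both heads. The pair most like Adhr was the eggshell gene dec-1, with 0.265 FPKM (virilis) and 2.81 FPKM (yakuba), at a distance of 0.35. After it came Sry-alpha, which acts in the cellularising embryo, at 0.107 and 1.13 FPKM, the amylase-related gene Amyrel at 0.193 and 0.667 FPKM, the chorion gene Cp16 at 0.787 and 0.850 FPKM, and the thioredoxin gene TrxT at 0.131 and 0.423 FPKM. These distances rest on 1 library per species, and those from Adhr take its listed 0 in virilis as a level, which it may not be.

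**Figure D3:**
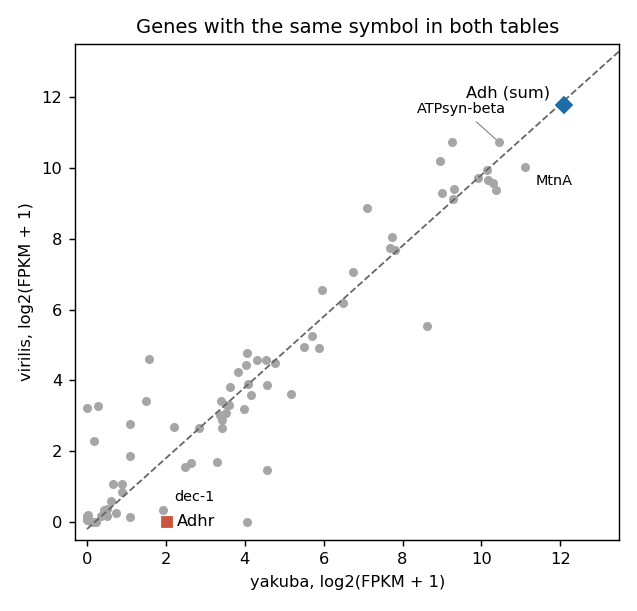
Level in virilis against level in yakuba, both as log2(FPKM + 1), for the genes with the same symbol in both tables (grey), Adhr (red square) and the sum of the virilis Adh copies against yakuba Adh (blue diamond); the dashed line marks the median ratio of -0.20. The summed Adh lies at the top close to the line, above every grey point, and Adhr lies on the bottom edge, at 0 in virilis and 3.05 FPKM in yakuba.

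The arrangement of the locus differed between the species in the position of Adhr. In yakuba, 313 bp separated the end of Adh from the start of Adhr, and the start positions were 1.21 kb apart. In virilis, 6.18 kb separated the end of Adh1 from the start of Adh2, and a further 76.3 kb separated Adh2 from Adhr on the same scaffold, with no other model starting in between. The coordinates are those of the deposited tables, with genome builds not given in the sources used here, and the tables carry no strand.

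In both species the Adh models lay inside the span of a much longer model. In yakuba this was GE24875 (FBgn0241972, 2L, 14714698 to 14794498), which spans 79.8 kb and contained both Adh and Adhr, with Adh starting 15.8 kb from its first base. In virilis it was GJ18021 (FBgn0205186, scaffold_12723, 2490205 to 2563462), which spans 73.3 kb and contained Adh1, starting 13.1 kb from its first base, and Adh2. No other model lay inside either span. Adhr lay outside the virilis model, 24.1 kb beyond its end.

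The files give no symbol for these long models, and none of the 8 genes fixed as neighbours of Adh in D. melanogaster, osp among them, was found by symbol in either table. In the RefSeq annotation of another D. virilis assembly, 0 identifiers matched the deposited models, so GJ18021 could not be paired with osp. There, Adhr lay outside osp on the same chromosome, with 3 genes between them, 1 protein-coding and 2 for long non-coding RNA. That annotation placed 6 protein-coding genes inside osp. Whether Adh1 and Adh2 are among them was not determined.

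The long models had moderate levels, 15.96 FPKM for GE24875 and 22.03 FPKM for GJ18021. Yakuba Adh was 272 times as high as GE24875, whereas Adhr in the same span was at 0.191 of it. In virilis, Adh1 was 89.8 times and Adh2 69.8 times as high as GJ18021. Most models inside another were lower than the model around them, with a median ratio of 0.128 over 438 such models in virilis and 0.124 over 501 in yakuba, counting those with both values above 0. A nested model at least 16-fold above the one around it, as all 3 Adh models were, occurred in 7.53% of virilis and 6.79% of yakuba cases. A ratio at least as large as that of Adh1 occurred in 2.28% in virilis, and one as large as that of yakuba Adh in 0.798%. Adhr was ordinary by this measure, as 57.7% of the nested yakuba models lay at least as far below the surrounding model.

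**Figure D4:**
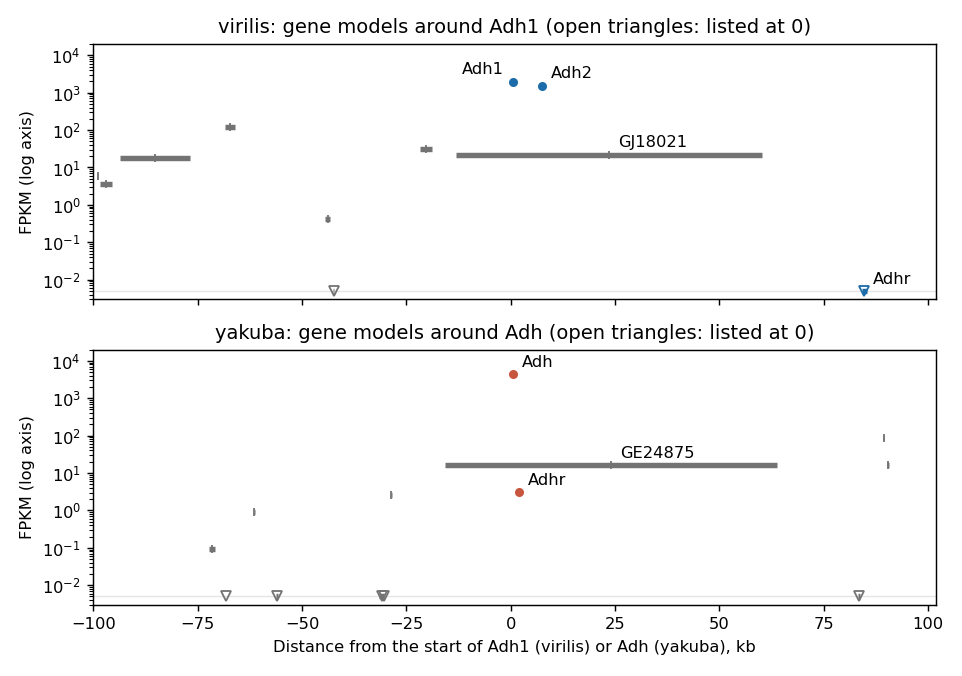
FPKM (log axis) of all models within 100 kb of Adh1 in virilis (top) and of Adh in yakuba (bottom), against distance in kb from the start of that gene. Bars show the span of each model, coloured points the Adh and Adhr models, and open triangles at the bottom the models listed at 0. The Adh models stand above every other model of the window, inside the long models GJ18021 and GE24875, and Adhr lies beside Adh in yakuba but 84.2 kb from the start of Adh1 in virilis.

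The surroundings of Adh were lower in level than Adh in both species. Within 100 kb on either side, the virilis window held 7 models besides the Adh and Adhr models and the long model, with a median of 5.86 FPKM and a highest value of 122 FPKM (GJ18203). The yakuba window held 10 such models, with a median of 0.0479 FPKM, 5 of them listed at 0, and a highest value of 83.7 FPKM (GE19040). Most of these yakuba models were short, such as GE24895 with a span of 241 bp and GE19039 with 519 bp. At an estimated fragment length of 180 bp, low values on such spans rest on few fragments. The medians of the 2 windows are therefore not compared. The nearest model before Adh1 outside GJ18021 was GJ18207, at 30.4 FPKM and a distance of 18.8 kb, and the first after Adhr was GJ18211, at 0.236 FPKM and 39.0 kb. In yakuba the nearest before Adh was GE24895, at 2.58 FPKM and 28.6 kb, and the first after Adhr was GE19039, listed at 0, at 80.7 kb. Over the whole sequence, Adh1 and Adh2 were the highest and the next highest of the 492 models of scaffold_12723, ahead of GJ18129 (878 FPKM), and Adh was the highest of the 2797 models of yakuba 2L, at 2.81 times GE11210 (1545 FPKM).

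Yakuba Adhr had 0.0703 FPKM for every 100 FPKM of Adh, so that Adh was 1423 times as high as its neighbour 313 bp away. Both values lie in the same library, so the ratio does not depend on the library total. Among 5564 pairs of neighbouring yakuba models less than 1 kb apart and both above 0, the median difference was 3.69-fold, and 23.3% differed by 16-fold or more. Of these pairs, 33 (0.593%) differed at least as much as Adh and Adhr, the pair itself included. In virilis 22.1% of 4628 such pairs differed by 16-fold or more, but Adhr was not within 1 kb of another model there and its ratio to Adh has no value. Fragments of a joint Adh and Adhr RNA, of the kind known from D. melanogaster, cannot be counted separately in these tables.

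**Figure D5:**
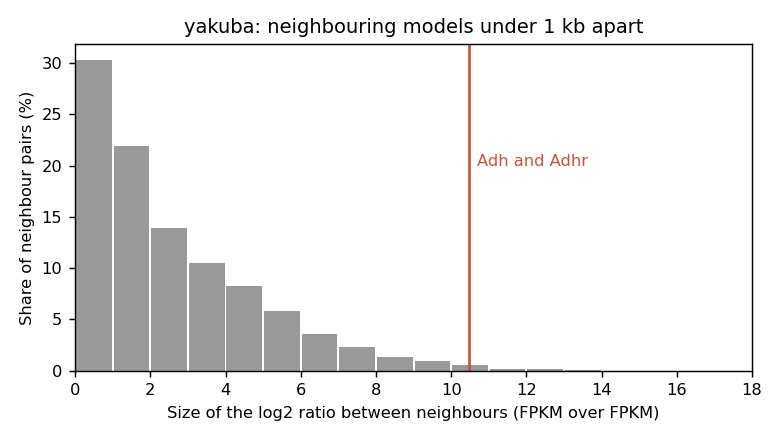
Share of neighbouring yakuba models less than 1 kb apart (vertical axis, % of 5564 pairs) by the size of the log2 ratio of their FPKM (horizontal axis, bins of 1 log2 unit). The red line marks Adh and Adhr at 10.5 log2 units; most pairs lie far to its left, and 0.593% lie at or beyond it.

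Other enzymes of alcohol and redox metabolism that could be found by symbol were well below Adh. Of the 23 symbols listed, 1 was found in virilis and 3 in yakuba. The glycerol-3-phosphate dehydrogenase gene Gpdh had 203 FPKM in the virilis head, where summed Adh was 17.3 times as high, and 225 FPKM in the yakuba head, where Adh was 19.3 times as high. The pentose phosphate pathway genes Pgd and Zw had 60.3 and 22.3 FPKM in yakuba. The genes of the next steps after Adh, such as Aldh and AcCoAS, for which the product acetaldehyde and then acetate are substrates, carried no symbol in these tables and have no value here.

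Of 12 relatives of the dehydrogenase family and other enzymes of similar redox function, none was found in virilis and 2 in yakuba. Pdh, the photoreceptor dehydrogenase that acts on retinoids, had 1296 FPKM, so that Adh was 3.35 times as high, and ifc, a sphingolipid desaturase gene and no short-chain dehydrogenase, had 19.2 FPKM. Among genes whose enzymes have long served, like Adh, as allozyme markers, virilis held 3 of 17 symbols and yakuba 10. All were below the summed Adh, as were 99.6% of all yakuba models with a symbol. The virilis sum would have had rank 7 of 14491 models. Medians of the allozyme genes were 203 FPKM in virilis and 41.3 FPKM in yakuba. Over all models with a symbol the medians were 8.61 and 23.7 FPKM, and over all models 6.26 and 4.20 FPKM. In virilis the allozyme genes were the superoxide dismutase gene Sod (262 FPKM), Gpdh and the xanthine dehydrogenase gene ry (20.5 FPKM). In yakuba they ran from Gpdh and the glucose phosphate isomerase gene Pgi (224 FPKM) down to the esterase gene Est-6 (4.25 FPKM). All 10 were above Adhr, but Adhr was above only 19.6% of all yakuba models with a symbol.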

How the data were processed

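RNA-seq of 1 head library per species was analysed. The authors deposited 1 table of FPKM per library, with gene identifier, name, locus and value, per the file headers. The submitters' processing notes name TopHat and Cufflinks. Not given in the sources used here are their versions, the builds, the annotations and whether strand was used. An FPKM value also depends on how complete each gene model is.

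Members were matched by symbol after removal of the species prefix and transcript suffix. Symbols were carried by 279 virilis and 496 yakuba models. Deposited starts were taken as counted from 0 and are printed counted from 1. Members, lists and comparisons were chosen with earlier results of these data known. Genes were named by a rule: the members, the 2 nearest models on each side, models that overlap a member, list members found, the symbols just above and below in level, and the 5 nearest symbol pairs. The highest models of a window or sequence, the eye, neuron and muscle markers and the pairs at 0 were named after their values were seen.

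The fragment total and fragment length (160 bp in virilis, 180 bp in yakuba) were searched for the pair that put most values under 0.12 FPKM, of models with spans of 900 to 4000 bp, within 0.04 of a whole number of fragments. This share was 58.9% and 49.2%, against a median of 5.77% over the searched pairs in each library. A whole fraction of the best total was taken if its share was at least 0.8 of the best, which applied in yakuba. Among totals close to the chosen one, near-best totals ran from 70000000 to 72750000 and from 61250000 to 64750000. The larger best-scoring total of yakuba lies outside this range, which is therefore not the full uncertainty. The yakuba fragment counts and counting intervals rest on the choice of the smaller total. The search was also run on made-up tables of the same models with a known total of 50000000 fragments and a fragment length of 170 bp. It returned a total of 49750000 in each case, and a fragment length of 170 bp for virilis and 165 bp for yakuba. Alternatives were another pseudocount, scaling, filter, gap or summing. Python 3.11.15, pandas 2.3.3 and scipy 1.17.1 were used.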

Additional observations from a re-analysis of the deposited data

How the results depend on the processing

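Of 37 recomputed values, 18 stayed within counting error (counts of genes, within 1.5 times). Some of the 18 could not change, so they say nothing about robustness. These include the yakuba level, which has 1 model, as highest model or mean, and its Adhr per 100 Adh with the highest model. They also include Adh1 over Adh2 corrected for fragment length, where the spans are equal, and the share of models below virilis Adhr, which was 0. The virilis Adh level of 3515 FPKM became 1979 FPKM for the higher copy alone and 1758 FPKM for the mean of the copies, and 8025 TPM against 10982 TPM in yakuba when scaled over models of 300 bp or more. Yakuba Adhr per 100 Adh rose from 0.0703 to 0.0933 and 0.185 with pseudocounts of 1 and 5 FPKM. The summed Adh log2 ratio of -0.11 reversed to 0.060 when centred on ribosomal protein pairs; it was -0.12 with a pseudocount of 5 FPKM, -0.30 not centred, -0.15 with unfiltered centring pairs and -0.93 with the higher virilis copy. Yakuba Adhr was above 16.9% of models at 1 FPKM or more and 43.7% of those of 300 bp or more. Neighbours 16-fold apart were 11.0% (virilis) and 10.9% (yakuba) with both at 1 FPKM or more, and 19.3% and 20.5% with gaps under 500 bp. Past 4-fold, 1 pair was higher in virilis and 3 in yakuba (2.44% and 7.32% of 41), which became 5 in virilis with no filter and 1 in yakuba with a pseudocount of 5 FPKM. Beyond what each alternative does by construction, the cause was not tested. For virilis Adhr, listed at 0, no ratio to Adh or to yakuba is given. No paired analysis was possible because each species has 1 library.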
